A study of Mus musculus with 4 samples.

Results

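The long noncoding RNAs (lncRNAs) described here are those whose listed locus lay wholly within 1 of 7 chromosome windows around imprinted genes. There were 782 of them among the 131850 lncRNAs measured. The windows are called by their best known genes: Meg3 on chromosome 12 (143 lncRNAs, spanning chr12:109423893-109794820), H19-Kcnq1ot1 on distal chromosome 7 (85 lncRNAs, chr7:142458218-143470232), Snrpn on central chromosome 7 (452 lncRNAs, chr7:59200957-62515628), Airn on chromosome 17 (47 lncRNAs, chr17:12607676-13041034), Gnas on chromosome 2 (19 lncRNAs, chr2:174266429-174336278), and Peg10 (20 lncRNAs, chr6:4610234-4959302) and Mest (16 lncRNAs, chr6:30645639-30893504) on chromosome 6. Each span runs from the start of the leftmost lncRNA to the end of the rightmost. The members were chosen by position and not by level. The cells were C3H10T1/2, a mouse mesenchymal progenitor line from C3H embryos that can form muscle, fat and cartilage cells. The untreated group held replicates 1 and 2, for which no time in culture is listed. The 5-AZA group held replicates 101 and 102, which were exposed to 20 μM 5-azacytidine, a cytidine analogue that lowers DNA methylation, for 72 hours and were then kept in fresh medium for 21 days. The paper calls the replicates biological repeats without saying how they were cultured, and the p-values below measure the spread between these samples. The question was which of these clusters changed their noncoding output after 5-AZA.

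An imprinted gene is transcribed mainly from the copy inherited from the mother or mainly from the copy inherited from the father. Such genes lie in clusters, and in many clusters the choice is set by a differentially methylated region and by a noncoding RNA made from 1 parental copy, which in cis can keep neighbouring protein-coding genes silent. Meg3, Rian and Mirg are maternally expressed and hold many miRNAs and small nucleolar RNAs (snoRNAs), H19 is maternal and shares enhancers with the paternal growth factor gene Igf2, and Kcnq1ot1, Airn, Snhg14 and the antisense RNA of Gnas are paternal. The values here do not separate the parental copies, so nothing below says which copy was read.

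Levels were deposited as FPKM, fragments scaled to transcript length and to the total of fragments, which keeps no read counts, so that the depth behind a value is unknown. In every one of the 4 samples, 255 of the 782 had a listed value of 0. A lncRNA was tested where its mean was at least 0.1 FPKM, which 202 members (25.8%) and 24075 of all lncRNAs (18.3%) met. It was called where limma's p-value, adjusted over all 24075, was below 0.05 and the change was over 2-fold on log2(FPKM + 0.1). A few transcripts held much of the lncRNA total, which was 147311 and 150156 FPKM in the untreated and 169514 and 223173 FPKM in the 5-AZA replicates. In bulk RNA, fewer cells of a type and less RNA per cell cannot be told apart. The 10 mesenchymal markers, 9 of which were tested, summed to 3322 and 3377 FPKM untreated and 2013 and 2303 FPKM after 5-AZA, with Nt5e listed at 0 in both untreated samples. Vim, an intermediate filament gene, made up most of these sums (2268 and 2406 against 1178 and 1380 FPKM), and the median log2 change of the tested markers was 0.26.

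Promoters of imprinted genes are sites where CpG methylation can differ between the parental copies, so the 250 bases upstream of 5 of these starts are shown as RefSeq gives them for GRCm38.p6. Capitals mark CpG, the dinucleotide that is methylated. These are windows before annotated starts, and whether they lie in differentially methylated regions was not examined.
Meg3, plus strand, chr12:109540746-109540995: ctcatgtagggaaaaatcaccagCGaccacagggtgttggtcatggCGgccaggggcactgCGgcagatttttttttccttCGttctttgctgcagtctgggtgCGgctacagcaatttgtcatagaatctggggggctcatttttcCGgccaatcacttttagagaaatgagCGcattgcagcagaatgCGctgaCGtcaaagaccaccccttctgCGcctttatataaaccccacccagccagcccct
Airn, plus strand, chr17:12741061-12741310: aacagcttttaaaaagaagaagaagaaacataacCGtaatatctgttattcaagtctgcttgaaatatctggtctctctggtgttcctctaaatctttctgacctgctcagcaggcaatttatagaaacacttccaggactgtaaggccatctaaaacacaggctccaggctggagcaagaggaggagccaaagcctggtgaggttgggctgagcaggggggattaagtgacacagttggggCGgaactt
Kcnq1ot1, minus strand, chr7:143296548-143296797: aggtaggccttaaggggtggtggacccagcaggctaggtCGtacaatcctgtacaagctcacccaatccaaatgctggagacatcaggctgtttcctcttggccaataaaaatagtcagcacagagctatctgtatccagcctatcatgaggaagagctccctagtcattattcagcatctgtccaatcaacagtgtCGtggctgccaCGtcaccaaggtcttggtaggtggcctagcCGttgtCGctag
Snhg14, minus strand, chr7:60450178-60450427: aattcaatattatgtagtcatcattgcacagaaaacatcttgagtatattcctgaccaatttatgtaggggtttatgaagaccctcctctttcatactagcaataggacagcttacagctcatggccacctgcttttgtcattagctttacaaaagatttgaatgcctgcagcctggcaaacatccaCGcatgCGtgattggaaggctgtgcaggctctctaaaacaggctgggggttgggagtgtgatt
Snurf, minus strand, chr7:60005200-60005449: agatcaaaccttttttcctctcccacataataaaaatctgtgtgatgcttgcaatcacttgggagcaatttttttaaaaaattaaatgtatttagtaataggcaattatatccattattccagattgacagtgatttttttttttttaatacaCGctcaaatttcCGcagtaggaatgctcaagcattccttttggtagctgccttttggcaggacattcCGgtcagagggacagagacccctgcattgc
The Meg3 sequence held 10 CpG, Kcnq1ot1 5, Snurf 3, and Airn and Snhg14 2 each, against a median of 6 over the same 250 bases of 32851 RefSeq promoters. The motif TGCCGC, which the imprint-keeping protein Zfp57 binds when methylated, occurred (either strand) 1 time in that of Meg3 and in none of the other 4, and 8.68% of all promoters held it. The E-box CAGCTG, bound by muscle factors such as Myod1, occurred in none of the 5 and in 13% of all promoters.

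The summed lncRNA level of 2 windows was several times higher after 5-AZA, and that of the others differed by less than 2-fold. Summed over all its lncRNAs, the H19-Kcnq1ot1 window stood at 9.44 and 8.11 FPKM in the untreated replicates and at 398 and 632 FPKM in 5-AZA replicates 101 and 102, a ratio of group means of 58.7. The Snrpn window went from 85.0 and 80.3 to 347 and 401 FPKM, a ratio of 4.53. In both, the 5-AZA samples lay far above the untreated ones, and 1 lncRNA carried most of the difference: the highest member of the H19-Kcnq1ot1 window held 12% of the window's sum before and 93.3% after 5-AZA, and that of the Snrpn window held 0.967% and 73.1%. Without these members the log2 ratios of the sums were 2.16 and 0.30 in place of 5.87 and 2.18. With each lncRNA weighted by its length they were 2.09 and 1.21. With only 2 samples against 2, an exact two-sided permutation test of a sum cannot go below p = 0.333.

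**Figure D1:**
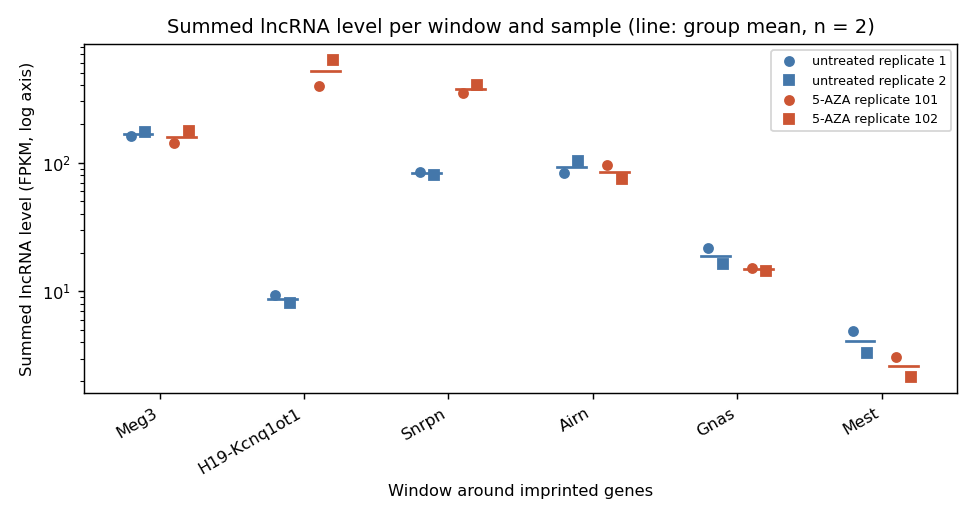
Summed lncRNA level (FPKM, log axis) of 6 windows in each sample, with circles and squares for the replicates and a line for each group mean (n = 2). The 5-AZA samples of the H19-Kcnq1ot1 (398 and 632 FPKM) and Snrpn (347 and 401 FPKM) windows lie far above the untreated ones, while the groups overlap in the Meg3 and Airn windows; Peg10, with sums of at most 0.135 FPKM, is left out.

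The Meg3 window summed to 162 and 173 FPKM untreated and 142 and 176 FPKM after 5-AZA. The Airn window summed to 83.8 and 103 against 95.4 and 74.4 FPKM, and the groups overlapped in both windows. The Gnas sums were 21.7 and 16.2 against 15.3 and 14.3 FPKM, and the Mest sums 4.93 and 3.33 against 3.10 and 2.15 FPKM, so that in these windows both 5-AZA samples were lower, by less than 2-fold. The Peg10 window was nearly silent, with 0.113 and 0.0549 against 0.135 and 0 FPKM, and none of its lncRNAs could be tested.

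At the level of single lncRNAs, 5 of the 202 tested members were called higher after 5-AZA and 0 were called lower. Over all lncRNAs, 237 (0.984%) were called higher and 37 (0.154%) lower. The 5 were 2 of 15 tested in the H19-Kcnq1ot1 window and 3 of 69 in the Snrpn window, and the Meg3 (69 tested), Airn (35), Gnas (11) and Mest (3) windows had none. At an unadjusted p below 0.05, 15 members were higher and 17 lower, against 5.25% and 7.89% of all lncRNAs. These calls did not hold under every setting. With no limit on low values, no lncRNA of the whole set was called, members included. The same held without any 1 of the 4 samples (untreated 1, untreated 2, 5-AZA 101 or 5-AZA 102). The 5 log2 changes themselves stayed between 4.86 and 9.01 whichever sample was left out, with adjusted p from 0.0807 to 0.152.

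**Figure D2:**
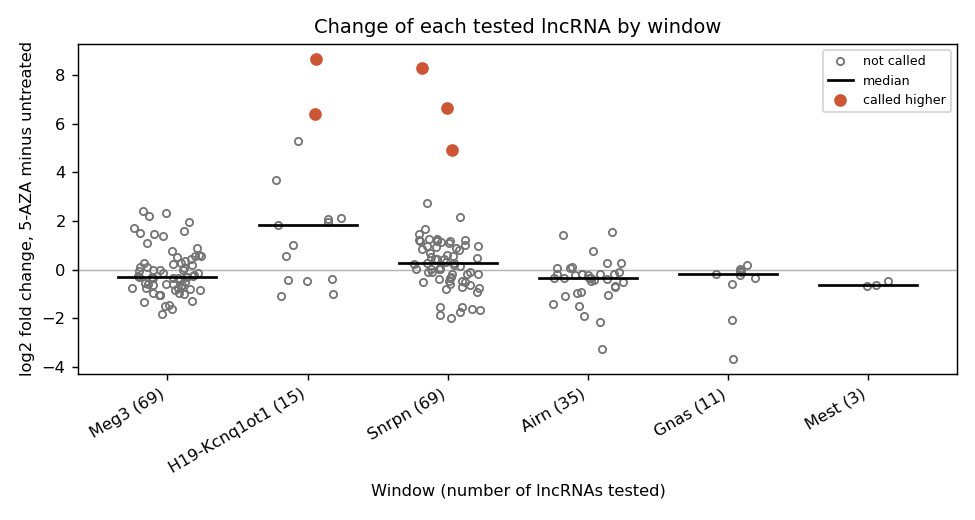
Log2 fold change (5-AZA minus untreated, on log2(FPKM + 0.1)) of each tested lncRNA by window, with filled points for the 5 called and a line at each window's median. The called lncRNAs stand at 4.91 to 8.67 in the H19-Kcnq1ot1 and Snrpn windows, and the medians of the other windows lie between -0.62 and -0.19.

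The bulk of each cluster moved less than its extremes. The median log2 change was 1.84 in the H19-Kcnq1ot1 window, 0.27 in Snrpn, -0.29 in Meg3, -0.36 in Airn, -0.19 in Gnas and -0.62 in Mest, beside -0.23 over all tested lncRNAs. Centring each sample on its median moved the median of all lncRNAs to -0.06. The same centring gave 2.01 for H19-Kcnq1ot1, 0.43 for Snrpn, -0.12 for Meg3, -0.19 for Airn, -0.03 for Gnas and -0.45 for Mest. The H19-Kcnq1ot1 median rested on 15 lncRNAs, of which 6 were overlapping listings of H19 and so not independent. It also rested on 5-AZA replicate 102, without which it was 0.61. It also moved with the treatment of low values, to 3.56 and 0.34 with pseudocounts of 0.01 and 1 FPKM, to 5.31 with a limit of 1 FPKM on the mean and to 0.07 with no limit. Groups that did not overlap were counted for 36 members with higher and 63 with lower 5-AZA values, where 14.6% and 31.7% of all tested lncRNAs did so. By window these counts were 8 and 25 in Meg3, 8 and 2 in H19-Kcnq1ot1, 18 and 13 in Snrpn, 2 and 15 in Airn, 0 and 5 in Gnas, and 0 and 3 in Mest. Lower values in both 5-AZA samples were thus common among all lncRNAs. The share of 31.7% is the background for the single lncRNAs described below as lower in both. The sums over genes such as Kcnq1ot1, Mirg, Airn and Gnasas1 join several lncRNAs, and no such share was counted for sums.

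H19, a spliced lncRNA of the embryo that is repressed in most tissues after birth, was nearly silent in untreated cells. Its main listed transcript, NONMMUT064276.2 (chr7:142575530-142578146, minus strand, 5 exons, 2288 nt, the same bounds as H19 of RefSeq), stood at 0.942 and 1.16 FPKM in the untreated replicates and at 370 and 590 FPKM after 5-AZA. Both 5-AZA samples were far above both untreated ones, and the log2 change was 8.67 ± 0.29 (SE, adjusted p = 0.00462, limma). A nearly identical listing, NONMMUT127918.1 with the same bounds and 2284 nt, went from 0.144 and 0.0722 to 13.5 and 21.9 FPKM, a log2 change of 6.40 ± 0.37 (adjusted p = 0.0101, limma). Since the 2 listings have the same bounds and nearly the same length, how the reads were divided between them is uncertain. The 8 lncRNAs over H19 summed to 1.09 and 1.23 FPKM untreated and to 385 and 616 FPKM after 5-AZA, a ratio of 432. When overlapping transcripts were summed before the fit, the H19 locus had a log2 change of 8.60 and was called (adjusted p = 0.00378, limma, over 19486 loci, of which 1.14% were called higher and 0.164% lower).

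H19 is also the precursor of miR-675, whose 3-prime arm lies inside the span of 6 of the listed lncRNAs. The mature miRNAs were not measured here, and they are shown because the transcript that rose carries them, with the seed (bases 2 to 8) in capitals as RefSeq lists them.
miR-675-5p: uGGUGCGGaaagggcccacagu
miR-675-3p: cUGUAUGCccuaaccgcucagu
Both mature sequences are read from the minus strand, that of H19. The 5-prime arm lies at chr7:142577112-142577133 and the 3-prime arm at chr7:142577078-142577099 of GRCm38.p6.

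Around H19, the transcripts near Igf2 were higher after 5-AZA at much lower levels. NONMMUT064283.2 (chr7:142650770-142652862, 2 exons), which lies within the Igf2 gene on the same strand and may share its reads, was at 0.328 and nearly 0 FPKM untreated and at 6.89 and 9.46 FPKM after 5-AZA. Its log2 change of 5.31 ± 0.77 did not pass (adjusted p = 0.102, limma), and with a pseudocount of 1 FPKM it did (2.98, adjusted p = 0.0290, limma). The lncRNAs over Igf2os, the antisense transcript of Igf2, summed to 0 and 0.0115 FPKM untreated and to 0.244 and 0.322 FPKM after 5-AZA. Nctc1, a muscle-expressed noncoding gene beside H19, was listed at 0 in both untreated samples and at 0.138 and 0.216 FPKM after 5-AZA, too low to be tested.

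The other end of the same window did not follow H19. Kcnq1ot1, the long unspliced RNA that silences genes around Kcnq1 on the paternal copy, is best covered by NONMMUT064303.2, a single exon of 84395 nt (chr7:143212155-143296549). This lncRNA stood at 3.69 and 3.71 FPKM untreated and at 2.95 and 2.36 FPKM after 5-AZA, with a log2 change of -0.47 ± 0.23 (adjusted p = 0.479, limma). The 4 lncRNAs over Kcnq1ot1 summed to 4.19 and 3.71 against 3.14 and 2.36 FPKM. In R74862, a noncoding gene antisense to Cd81, NONMMUT064297.2 had the largest fall of the window among non-overlapping lncRNAs whose higher group mean reached 1 FPKM, from 1.28 and 1.72 to 0.644 and 0.738 FPKM (log2 change -1.0 ± 0.29, adjusted p = 0.314). In both genes the 5-AZA samples lay below the untreated ones without passing the test, while H19 passed it in the other direction.

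**Figure D3:**
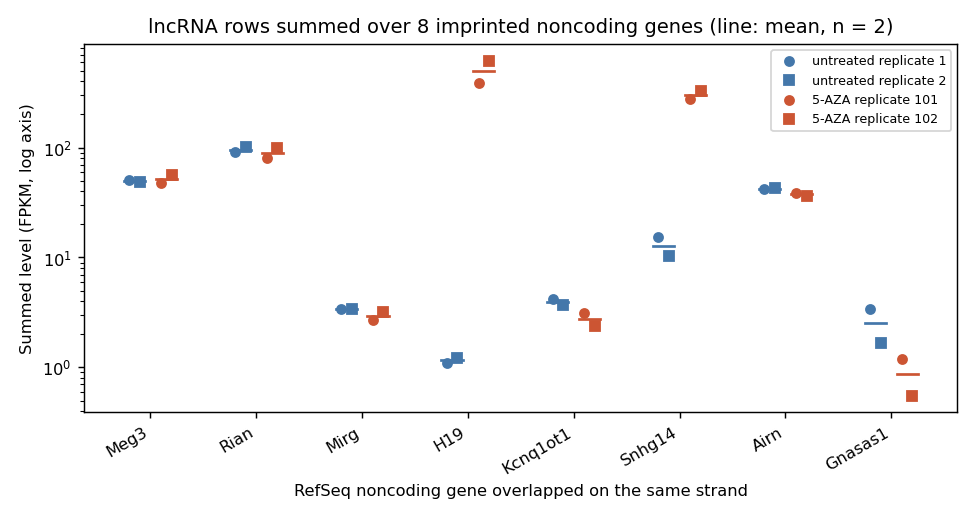
Sum of the lncRNAs that overlap each of 8 imprinted noncoding genes on its strand (FPKM, log axis) in each sample, with a line for each group mean (n = 2). H19 (1.09 and 1.23 against 385 and 616 FPKM) and Snhg14 (15.3 and 10.3 against 274 and 327 FPKM) are far higher after 5-AZA, while Meg3, Rian, Mirg, Kcnq1ot1, Airn and Gnasas1 differ by less than 3-fold.

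In the Snrpn window the 3 called lncRNAs lay close together within Snhg14. Snhg14 is a very long paternal RNA that starts at and upstream of Snrpn, carries arrays of snoRNA genes and Ipw, and runs antisense into Ube3a, which it silences in neurons. Its RefSeq span, chr7:59272737-60450177 on the minus strand, was overlapped by 132 lncRNAs, of which 13 could be tested. NONMMUT126915.1 (chr7:59692438-59696211, 3 exons, 726 nt) was at 0.610 and 0.988 FPKM in the untreated replicates and at 248 and 299 FPKM after 5-AZA. Its log2 change was 8.28 ± 0.28 (adjusted p = 0.00462, limma), and no untreated value came near the 5-AZA ones. NONMMUT061631.2 (chr7:59676663-59686523, 5 exons, 1002 nt), which overlaps both Snhg14 and Ipw, went from 0.0242 and 0.0448 to 13.1 and 13.9 FPKM (log2 change 6.66 ± 0.26, adjusted p = 0.00483). NONMMUT061610.2 (chr7:59627719-59686523, 6 exons, 989 nt), which ends at the same base, went from 8.37e-04 and 6.12e-06 to 3.05 and 2.82 FPKM, and its log2 change of 4.91 ± 0.31 (adjusted p = 0.0115) depends on the pseudocount, since the untreated values are near 0. With a limit of 1 FPKM on the mean this last call was lost (adjusted p = 0.0978, limma).

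The 3 called lncRNAs lay 755.9, 768.6 and 793.1 kb from the start of Snhg14 at their midpoints, and 309 to 319 kb downstream of the start of Snurf, whose coding sequence precedes that of Snrpn on 1 transcript. They hold 2, 3 and 5 of the 206 snoRNA genes that RefSeq lists in the window, and the 3 are among the 5. These snoRNA genes and the exons between them are repeated in near-identical copies, so that the copy from which a read came is uncertain. In steps of 100 kb along Snhg14, only the step from 700 to 800 kb held called lncRNAs, with sums of 0.640 and 1.03 FPKM untreated and 265 and 317 FPKM after 5-AZA. The step from 500 to 600 kb, the only other one above 3 FPKM, went the other way from 11.8 and 7.58 to 5.43 and 6.39 FPKM. Toward the far end, between 1100 and 1200 kb, the sums were 0.171 and 0.666 against 0.367 and 0.497 FPKM, and the groups overlapped. Most of this was NONMMUT061435.2, with its midpoint at 1118.45 kb (0.171 and 0.610 against 0.367 and 0.439 FPKM). Snhg14 runs antisense to Ube3a only from 1139.3 kb on. No lncRNA with its midpoint beyond that point exceeded 0.056 FPKM in any sample. The lncRNAs over Ipw summed to 0.0300 and 0.0451 FPKM untreated and to 16.9 and 17.8 FPKM after 5-AZA. With overlapping transcripts summed, the Snhg14 and Ipw locus of 37 lncRNAs had a log2 change of 8.17 (limma, adjusted p = 0.00378) and was the only called locus of the windows besides H19.

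**Figure D4:**
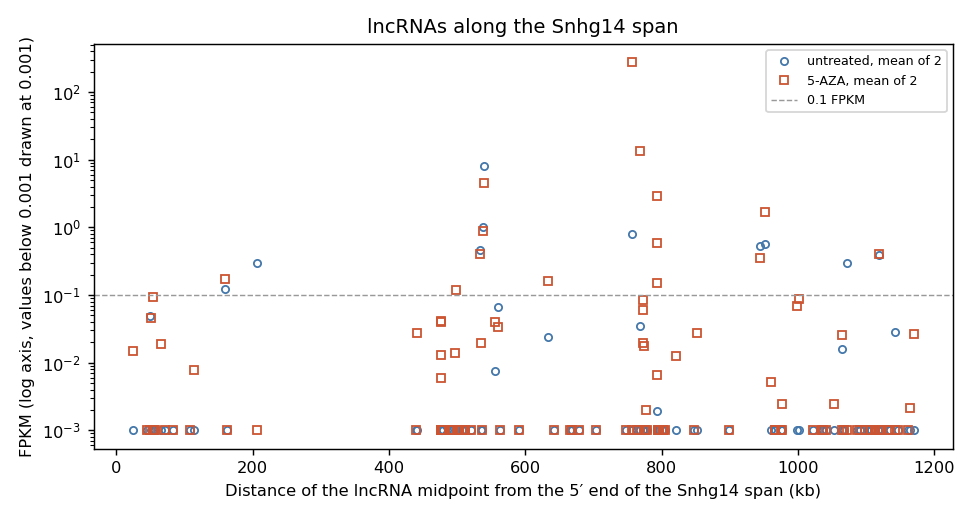
Mean FPKM (log axis, n = 2 per group) of each lncRNA on the Snhg14 strand against the distance of its midpoint from the start of Snhg14 (kb), with circles for untreated and squares for 5-AZA samples. The 5-AZA values rise above the untreated ones near 755.9 to 793.1 kb, where the 3 called lncRNAs lie, and values below 0.001 FPKM are drawn at 0.001.

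Other lncRNAs of the Snrpn window were not called. The highest in untreated cells, NONMMUT061428.2 (chr7:59308035-59310834, plus strand), lies within Ube3a on its strand and was at 23.4 and 20.2 FPKM untreated and 21.5 and 23.1 FPKM after 5-AZA. NONMMUT126947.1 (chr7:60453381-60454212), just upstream of the start of Snhg14, was at 7.80 and 11.3 against 11.0 and 11.6 FPKM. Both had overlapping groups. The largest fall among non-overlapping lncRNAs whose higher group mean reached 1 FPKM, that of NONMMUT126898.1 (chr7:59218614-59219915), from 2.82 and 1.03 to 0.716 and 0.298 FPKM, did not pass (log2 change -1.67 ± 0.64, adjusted p = 0.393, limma). A230006K03Rik, a noncoding gene upstream of Snhg14 with 49 overlapping lncRNAs, summed to 4.08 and 4.58 against 4.87 and 5.71 FPKM.

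The Meg3 window had the highest summed level of the 7 before treatment, and none of its lncRNAs was called. Meg3, which is maternally expressed and known as a growth-restraining lncRNA, was covered by 31 lncRNAs that summed to 50.2 and 49.0 FPKM untreated and 47.1 and 56.1 FPKM after 5-AZA. Rian, which carries snoRNAs, summed to 90.2 and 101 against 79.7 and 98.6 FPKM over 48 lncRNAs. Both had overlapping groups. Mirg, which carries a large array of miRNAs, was lower in both 5-AZA samples, at 2.69 and 3.20 against 3.43 and 3.42 FPKM. The miRNA sequences used here hold 57 hairpins with 112 mature miRNAs in the window, where RefSeq lists 60 miRNA genes. These libraries measured none of the mature miRNAs.

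Within Meg3 the listed isoforms did not all move one way. NONMMUT015697.2 (chr12:109541001-109545319, 3 exons), the highest Meg3 isoform, was at 13.5 and 14.7 FPKM untreated and 15.5 and 18.8 FPKM after 5-AZA (log2 change 0.27 ± 0.20). NONMMUT141624.1 (chr12:109540996-109546992, 5 exons) was at 8.35 and 9.23 against 7.65 and 6.92 FPKM (-0.27 ± 0.19). NONMMUT141625.1, with the same bounds but 4 exons, was at 1.31 and 0.399 against 3.52 and 3.99 FPKM (2.2 ± 0.56, adjusted p = 0.272, limma). The groups did not overlap in any of these isoforms, none passed the adjustment, and the division of reads between overlapping isoforms is uncertain. In Rian, NONMMUT015778.2 (chr12:109646191-109661709, 12 exons), the highest lncRNA of the window, was at 34.5 and 42.9 against 24.9 and 43.9 FPKM, a spread between the 5-AZA samples wider than the difference of the groups. NONMMUT141647.1 (chr12:109603945-109661711, 21 exons) had the largest fall of the window among non-overlapping lncRNAs whose higher group mean reached 1 FPKM, from 2.21 and 0.670 to 0.386 and 0.360 FPKM (-1.49 ± 0.61, adjusted p = 0.416).

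Airn, the paternal RNA that runs antisense through Igf2r and silences it on that copy, was transcribed in both groups. Its 24 overlapping lncRNAs summed to 42.0 and 42.7 FPKM untreated and 38.7 and 36.2 FPKM after 5-AZA, so that both 5-AZA samples were lower by a ratio of 0.884. The spliced NONMMUT028236.2 (chr17:12741311-12815557, 2 exons), which starts at the Airn start, was at 3.60 and 3.95 against 3.77 and 2.98 FPKM, with overlapping groups. Most of the other tested Airn lncRNAs are single exons placed along the gene. The 2 highest lncRNAs of the window lie outside Airn: NONMMUT028272.2, within the RNA methylation cofactor gene Wtap, was at 23.3 and 32.5 against 42.9 and 26.3 FPKM, and NONMMUT028278.2, which overlaps the end of the mitochondrial superoxide dismutase gene Sod2 and runs beyond it, at 13.1 and 12.5 against 10.7 and 9.25 FPKM. Both are on the strand of the coding gene and may hold its reads. NONMMUT028276.2 (chr17:12993806-12995040) had the largest fall of the window among non-overlapping lncRNAs whose higher group mean reached 1 FPKM, from 1.51 and 0.924 to 0.420 and 0.638 FPKM (log2 change -1.05 ± 0.39, adjusted p = 0.379, limma).

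In the Gnas window, the antisense gene Gnasas1, whose transcription runs across the Gnas promoters of the paternal copy, was lower in both 5-AZA samples. Its 7 lncRNAs summed to 3.42 and 1.68 FPKM untreated and 1.20 and 0.554 FPKM after 5-AZA. NONMMUT041636.2 (chr2:174291341-174291672), 1 of these, was at 1.96 and 0.675 FPKM untreated and listed at 0 in both 5-AZA samples, and it did not pass (adjusted p = 0.137, limma). The highest lncRNAs of the window, NONMMUT041645.2 (5.00 and 4.80 against 4.77 and 3.75 FPKM) and NONMMUT041642.2 (4.30 and 4.0 against 3.49 and 3.75 FPKM), lie within Gnas on its strand. NONMMUT041628.2 (chr2:174266429-174267057) was at 2.2 and 1.21 against 1.30 and 2.76 FPKM, with overlapping groups.

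All 3 tested lncRNAs of the Mest window lie within Copg2, a coat protein gene that converges on Mest, on the strand of Copg2. NONMMUT056142.2 (chr6:30862150-30863534) was at 3.64 and 2.23 FPKM untreated and 2.16 and 1.38 FPKM after 5-AZA (log2 change -0.69 ± 0.38). NONMMUT056141.2 was at 0.606 and 0.802 against 0.605 and 0.379 FPKM, and NONMMUT056138.2 at 0.254 and 0.228 against 0.126 and 0.117 FPKM. All 3 had both 5-AZA samples below both untreated ones, as had 31.7% of all tested lncRNAs. None of the 3 passed the test (adjusted p from 0.523 to 0.618, limma). Over the windows, 69 of the 202 tested lncRNAs overlapped a protein-coding gene on either strand, 126 overlapped a RefSeq noncoding gene on the same strand, and 53 overlapped neither.

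The protein-coding neighbours of the clusters show which of these noncoding differences had coding counterparts nearby. A list of 68 such genes was used, of which 44 could be tested as sums of their transcripts. Of these, 9 were higher and 1 lower after 5-AZA, where 13.1% and 1.32% of all 13199 tested genes were called higher and lower. The median log2 change was 0.20 over the neighbours and 0.05 over all genes. Without 5-AZA replicate 101, and likewise without 102, only Tnnt3, Lsp1, Cdkn1c and Mest passed, and the adjusted p of the other 6 then lay between 0.0502 and 0.167 (limma). The log2 changes of these 6 kept their direction, as for Igf2 at 4.46 and 4.51 and Pon3 at 2.61 and 2.80. With no limit on low values Cpa4, Peg10, Rtl1 and Slc22a2 were not called.

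Next to H19, Igf2 was at 1.34 and 0.855 FPKM untreated and at 26.5 and 25.7 FPKM after 5-AZA (log2 change 4.48 ± 0.21, adjusted p = 1.93e-06, limma). Cdkn1c, a maternal cell cycle inhibitor gene that Kcnq1ot1 silences on the paternal copy, rose from 0.0159 and 0 to 0.902 and 1.74 FPKM (3.66 ± 0.39, adjusted p = 0.000210). Tnnt3, encoding fast skeletal troponin T, rose from 0.165 and 0.254 to 91.1 and 128 FPKM, and Lsp1, an actin-binding protein gene of leukocytes, from 2.48 and 2.23 to 10.3 and 14.7 FPKM. Tnni2, a skeletal muscle marker that lies in this window but was not on the neighbour list, rose from 0.128 and 0.0538 to 64.0 and 100 FPKM. Its log2 change was 8.74 ± 0.27 (adjusted p = 2.98e-07, limma). The other 9 tested genes of the neighbour list for this window were not called, among them Cd81, a tetraspanin gene, at 224 and 213 against 220 and 269 FPKM, and Nap1l4, at 25.9 and 25.8 against 27.8 and 33.9 FPKM.

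Around the Snrpn window no coding gene was called. Snrpn and Snurf, which are made from 1 transcript on the path of Snhg14, were listed at 0 in untreated cells and at 0.237 and 0.0772 FPKM (Snrpn) and 0.00357 and 0.0291 FPKM (Snurf) after 5-AZA, too low to be tested and far below NONMMUT126915.1. Ube3a, a ubiquitin ligase gene, was at 29.0 and 28.0 against 31.8 and 31.3 FPKM, and Ndn, which is paternal and encodes necdin, at 7.95 and 6.52 against 7.23 and 9.55 FPKM.

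On chromosome 6, 4 coding genes in or beside the Mest and Peg10 windows were called, while no lncRNA of these windows was. Mest, a paternal gene of the hydrolase fold family, rose from 1.45 and 1.91 to 45.8 and 79.2 FPKM (5.09 ± 0.25, adjusted p = 2.52e-06, limma), and its neighbour Cpa4, a carboxypeptidase gene, from 0.403 and 0.133 to 2.28 and 3.61 FPKM. Copg2 was at 24.8 and 22.6 against 20.0 and 24.5 FPKM. Peg10, a paternal gene derived from a retrotransposon, rose from 2.43 and 1.89 to 6.37 and 9.89 FPKM (1.84 ± 0.24, adjusted p = 0.000591), and Pon3, a paraoxonase gene, from 0.451 and 0.296 to 3.15 and 2.75 FPKM. Pon3 and Cpa4 lie outside the windows, and the Peg10 window had no testable lncRNA. Sgce, which shares its promoter region with Peg10, was at 20.4 and 19 against 21.5 and 21.0 FPKM.

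In the Airn window Igf2r, the receptor gene that Airn silences in cis, was at 59.7 and 59.5 FPKM untreated and at 35.7 and 45.1 FPKM after 5-AZA. Its log2 change of -0.57 ± 0.12 passed on the adjusted p (0.0101, limma) but not on the 2-fold limit. Slc22a2, a cation transporter gene of the same cluster, fell from 0.598 and 0.765 to 0.111 and 0.343 FPKM (-1.34 ± 0.41, adjusted p = 0.0439), a call that was lost in 8 of the alternative fits. Gnas, encoding the stimulatory G protein subunit, was at 213 and 220 against 187 and 210 FPKM. In the Meg3 window Rtl1, a paternal retrotransposon-derived gene, rose from 0.0912 and 0.0134 to 0.609 and 0.734 FPKM (2.38 ± 0.39, adjusted p = 0.00228, lost with a pseudocount of 1 FPKM, with no limit on low values and after quantile normalization), while Dlk1, the paternal Notch-like ligand gene, was at 0.295 and 0.0788 against 0.113 and 0.942 FPKM. The strand that distinguishes Rtl1 from its antisense RNA was kept by the library kit, and the setting used in counting is not given in the sources used here.

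**Figure D5:**
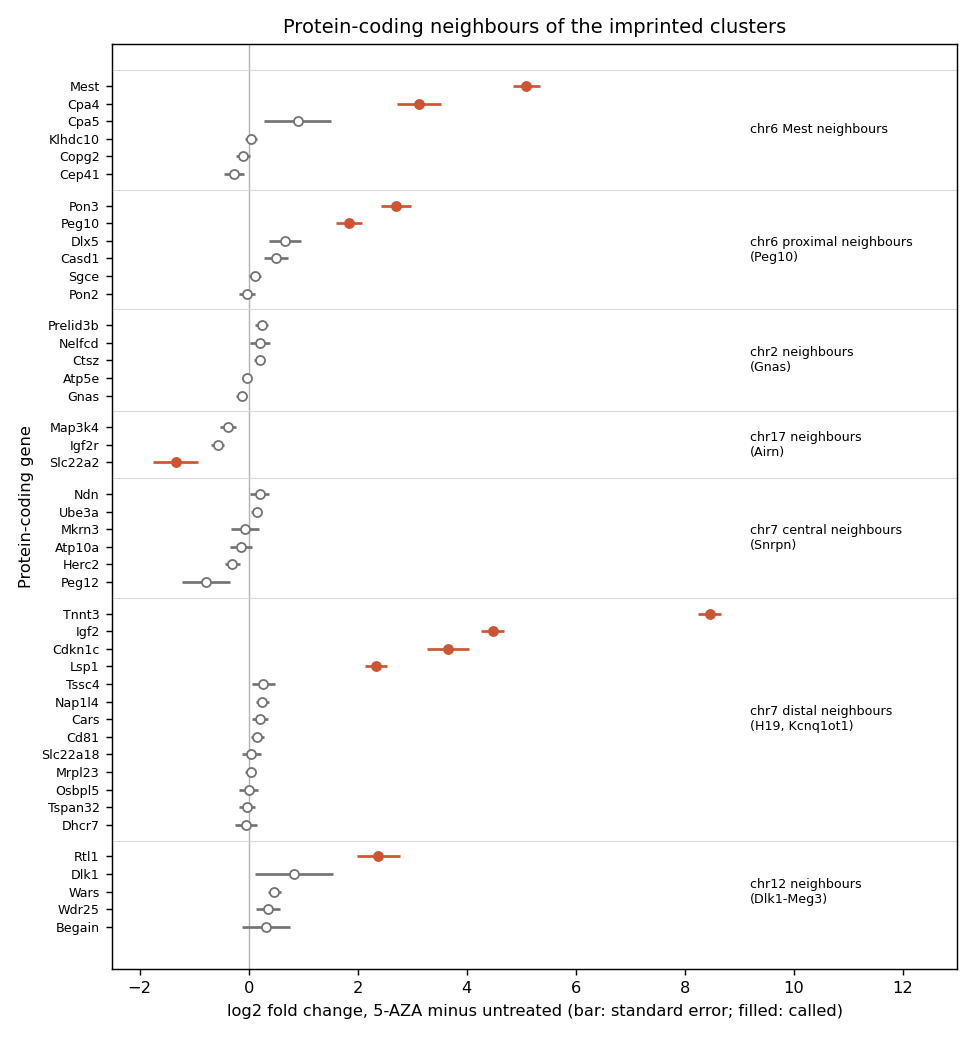
Log2 fold change (5-AZA minus untreated, with its standard error) of the 44 tested protein-coding neighbours, grouped by cluster, with filled points for the 10 called. Tnnt3, Igf2, Cdkn1c and Lsp1 stand out by the H19-Kcnq1ot1 window and Mest and Cpa4 by the Mest window, while no gene around Snrpn or Gnas was called.

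Most genes that keep imprints and copy DNA methylation were not called. Of 17 on the list, 15 were tested, 0 were called higher and 1, Tet1, an enzyme that oxidises methylated cytosine, lower (3.33 and 3.34 against 1.68 and 1.46 FPKM, log2 change -1.04 ± 0.20, adjusted p = 0.00523, limma). Dnmt1, the maintenance methyltransferase, was at 14.1 and 11.5 against 12.8 and 12.8 FPKM. Zfp57, which binds methylated imprint control regions, was at 2.90 and 2.49 against 1.78 and 2.03 FPKM and was not called. DNA methylation itself was not measured.

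Markers of other cell types moved with the treatment beside H19 and Snhg14. All 10 skeletal muscle markers rose, with sums of 1.61 and 1.27 FPKM untreated and 813 and 1247 FPKM after 5-AZA. Tnnt3 and Tnni2, both in the H19-Kcnq1ot1 window, are on that list. Of 6 adipocyte markers 5 were tested and 4 rose, with sums of 42.6 and 27.8 against 1030 and 1415 FPKM. Of 6 immune markers only Cd68 could be tested, and it rose, with list sums from 1.17 to 1.5 FPKM untreated and from 2.47 to 3.75 FPKM after 5-AZA, while Cd3e had values of 0 throughout. Of 6 neural markers 3 were tested and 1, Gfap, rose, from 1.43 and 1.70 to 7.66 and 13.7 FPKM. Tubb3, at 1.09 and 1.23 against 0.681 and 0.793 FPKM, and Map2, at 8.22 and 7.89 against 8.47 and 8.69 FPKM, were not called. The neural sums of 10.7 and 10.8 against 16.8 and 23.2 FPKM thus differed mostly through Gfap, and Snap25 was listed at 0. Of the mesenchymal markers Thy1 rose and the others were not called. The part of these cell types in the lncRNA differences was not tested.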

How the data were processed

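RNA from 2 untreated and 2 5-AZA samples of C3H10T1/2 was sequenced after removal of ribosomal RNA with a stranded kit. The submitters' processing notes name Trimmomatic, HISAT2, Bowtie2 2.2.9, eXpress 1.5.1 and mm9. The authors deposited FPKM values per lncRNA and mRNA transcript and RPM values per circRNA. Of 598 lncRNAs sourced from RefSeq, 382 (63.9%) had the exact bounds of a RefSeq gene of GRCm38.p6, so that build was used, with starts counted from 1. eXpress divides reads among overlapping transcripts and gene copies, so isoform values are estimates. limma 3.58.1 (lmFit, eBayes with trend, R 4.3.3, files read with data.table) was fitted to log2(FPKM + 0.1) of all lncRNAs, and separately to all mRNA genes, with Benjamini-Hochberg adjustment and no count test, since FPKM are not counts. The fits were tested on simulated data. Named lncRNAs are every member called, the 3 highest of each window, and the largest rise and fall of each window among non-overlapping lncRNAs whose higher group mean reached 1 FPKM, others being named from gene spans after their values were seen. Neighbour, marker and methylation genes come from lists. The members and lists were chosen with earlier results of these data known. Other pseudocounts, limits, scalings, sums over overlapping transcripts and each sample's omission were tried.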

Additional observations from a re-analysis of the deposited data

How the results depend on the processing

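With no limit on low values the lncRNAs called fell from 274 to 0, the cluster lncRNAs called higher from 5 to 0 and the neighbour genes called from 10 to 6. Without each sample in turn, both lncRNA counts were 0 throughout and the neighbour genes ranged from 4 to 9, with 4 without 5-AZA replicate 101 and 4 without 102. In these 5 fits limma gave 5036, 2633, 2655, 3506 and 3149 lncRNAs at an unadjusted p below 0.05. Summing overlapping transcripts left 2 called loci in the windows, and fitting each mRNA transcript on its own left 4 neighbour genes. The log2 ratio of summed levels, divided by the sum of all lncRNA FPKM, was -0.47 for Meg3, 5.45 for H19-Kcnq1ot1, 1.79 for Snrpn, -0.49 for Airn and -0.73 for Gnas. Weighted by length, it was 2.09 for H19-Kcnq1ot1 and 1.21 for Snrpn. Without the highest member it was 2.16 for H19-Kcnq1ot1, 0.30 for Snrpn and -0.38 for Airn. Leaving out each sample gave -0.24 to 0.07 for Meg3, 5.50 to 6.17 for H19-Kcnq1ot1 and -0.55 to -0.13 for Gnas. Among single lncRNAs, genes and window medians, most of which were never called or have no call, 255 alternative values stayed on the same side of the threshold with the same direction or moved by less than the replicate spread, 15 calls were lost, 1 was gained and 15 values moved; leaving out a sample, these counts were 124, 34 lost and 10 moved. No called change turned sign. No paired analysis was possible because the groups share no replicate number. FPKM gives no depth, so the precision of low values is unknown.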

Other observations

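Circular RNAs, measured as RPM (junction reads scaled to the total of reads), were rare in the windows. Of 4295 circRNAs, 11 lay within the windows, 4 of them in Meg3, 3 in Snrpn, 2 in Airn, 1 in Peg10 and 1 in Mest, and none in the H19-Kcnq1ot1 and Gnas windows. Only circRNA_3574, from the ubiquitin ligase gene Ube3a, was detected in every sample, at 0.269 and 0.171 RPM untreated and 0.172 and 0.0745 RPM after 5-AZA. The others reached at most 0.0538 RPM, which leaves no comparison between the groups.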
